A study of Mus musculus with 27 samples.

Results

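The 40 genes described here encode the machinery of autophagy, from the kinase complex that starts it to the factors that fuse the finished vesicle with the lysosome. They were chosen by gene symbol from a list of known parts of the machinery, with earlier results of these data known, and all 40 were found among the 26264 symbols of the table, which writes them in lower case (ulk1, becn1, map1lc3b) where mouse style is used here. Expression was measured by RNA-seq in cortex blocks of female 5xFAD/C57BL6 mice at 16 weeks of age, 24 h after stereotaxic microinjection of vehicle, R33 or R55. R33 and R55 are pharmacological chaperones of retromer, the complex that returns membrane proteins from endosomes, and their solutions were at 10 mM. In the libraries used the labels give 4 mice that received vehicle, 5 that received R33 and 5 that received R55, and the study states 6 mice per group. A library was made from the injected and another from the contralateral hemisphere of each mouse, except for the R33-treated mouse AE, whose injected hemisphere alone was used, so there were 27 libraries in all. All mice carried the 5xFAD transgenes of this amyloid model, which are driven from the Thy1 promoter, active mainly in neurons. All received an injection, so the comparisons are within 5xFAD mice and between solutions, and neither wild-type nor uninjected mice enter them.

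Autophagy encloses cytoplasm, protein aggregates or whole organelles in a double membrane and delivers them to the lysosome. The Ulk complex receives the signal of nutrient state, a class III PI3-kinase complex marks the forming membrane with PI3P, and a pair of ubiquitin-like conjugation reactions attach proteins of the Atg8 family to it, where cargo receptors bind. Neurons depend on this turnover because they do not divide, and autophagic vesicles accumulate in the swollen neurites around amyloid plaques. Much of the control of autophagy acts on proteins through phosphorylation and lipidation, which RNA levels do not report.

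Libraries held 15932198 to 38077032 fragments counted on genes, and every member had at least 134 fragments in every library. Expression is given as FPKM, fragments counted on a gene scaled to its length and to the total of the library, which can be compared between genes. The 6 markers each of neurons, astrocytes, microglia and oligodendrocytes were all above 1 FPKM on average over the libraries, with summed neuronal markers of 2020 to 3230 FPKM per library. Among the red blood cell markers the globin genes Hba-a1, Hbb-bs and Hbb-bt were at 0 in the table, while Alas2 averaged 2.56 FPKM. Why the globin genes had no counts was not tested, so their zeros do not show that the blocks held no blood. The library of the injected hemisphere of the R33-treated mouse AD stood apart, since it held the highest value of 22% and the lowest of 13.6% of the 12976 genes tested. It held the highest value of 10 members and the lowest of 5. In a tissue block, fewer cells of a type and less RNA per cell cannot be told apart.

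All 40 members were expressed, and all passed the filter of a mean of at least 1 FPKM. Their mean levels over the 27 libraries ran from 4.73 to 383.5 FPKM with a median of 22.5 FPKM, against a median of 9.32 FPKM for all tested genes, and 33 of 40 lay above the latter. The Atg8 family, the small ubiquitin-like proteins that coat the autophagosome, was the most abundant group, with a median of 133.8 FPKM over 5 genes. Gabarapl1 had the highest level of all members at 383.5 FPKM, with single libraries from 325.9 to 450.4 FPKM, and Gabarapl2 the lowest of the family at 43.4 FPKM. Next came Sqstm1, the p62 receptor for ubiquitinated cargo, at 268.2 FPKM, and Pink1, the kinase that tags damaged mitochondria, at 235.6 FPKM. The genes that form the autophagosome were expressed at lower levels, with medians of 20.03 FPKM for the 5 genes of the initiation complex, 13.2 FPKM for the 6 of the PI3-kinase complex and 15.1 FPKM for the 7 conjugation enzymes. The fusion genes stood at the bottom, with 4.798 FPKM for Epg5, a tether between autophagosome and lysosome, and 4.73 FPKM for Stx17, the autophagosomal SNARE.

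**Figure D1:**
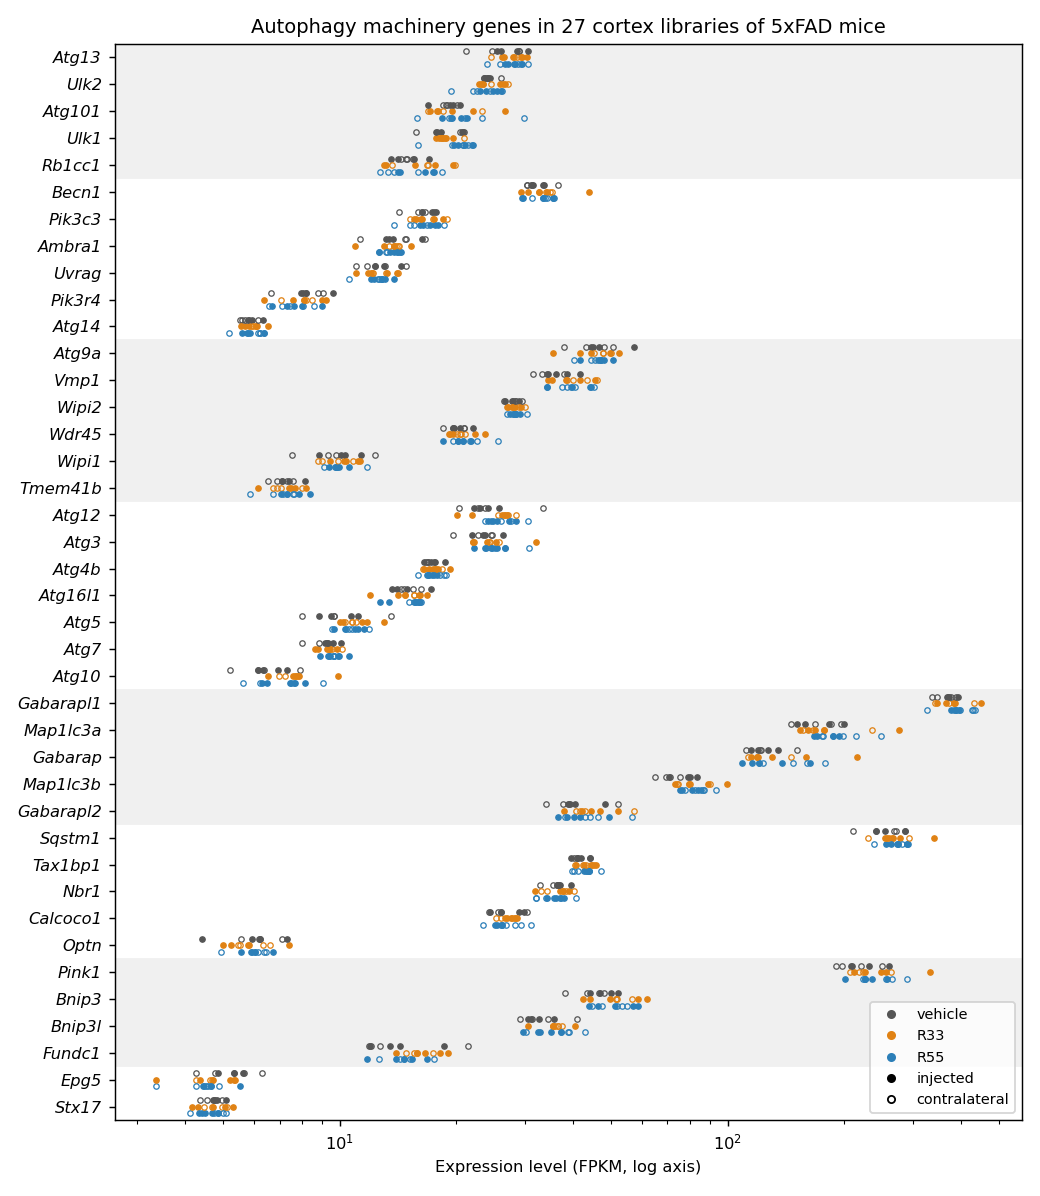
Expression of the 40 members in each of 27 libraries (FPKM, log axis), ordered by role (shaded bands) and by level within a role. Each point is a library, filled for the injected and open for the contralateral hemisphere, and the points of a member lie close together compared with the distance between members, from 4.73 FPKM on average for Stx17 to 383.5 FPKM for Gabarapl1.

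The members were steadily expressed from mouse to mouse. The ratio of the highest to the lowest of the 27 libraries ran from 1.15 for Wipi2, a PI3P-binding protein that recruits the conjugation machinery, to 1.98 for Gabarap, with a median of 1.5. All 40 members thus stayed under 2-fold between any pair of libraries, as did 71.0% of the 9019 tested genes at or above the level of the lowest member. The residual standard deviation on the log2 scale was below the median of all tested genes for 33 of 40 members, with a median of 0.13 against 0.17. Here the genes were not matched for level, which was higher for most members, and the part of level was not tested.

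Members of the Atg8 family are made as precursors, and the Atg4 proteases cleave behind a glycine near the end to free the residue that is joined to lipid. What follows that glycine differs between Map1lc3b, the member with the smallest p-value after R55, and the Gabarap genes. Map1lc3a is not shown, so the family is not covered in full. The last 42 bases of the reading frame are shown for the other 4, with the glycine codon in capitals. They are on the plus strand of GRCm39 within 1 exon each, at chr8:122323468-122323509 for Map1lc3b, chr11:69885309-69885350 for Gabarap, chr6:129518089-129518130 for Gabarapl1 and chr8:112678996-112679037 for Gabarapl2.
Map1lc3b: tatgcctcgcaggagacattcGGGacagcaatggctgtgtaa
Gabarap: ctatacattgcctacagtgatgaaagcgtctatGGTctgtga
Gabarapl1: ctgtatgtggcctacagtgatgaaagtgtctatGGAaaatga
Gabarapl2: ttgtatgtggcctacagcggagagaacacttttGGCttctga
In Map1lc3b, 5 codons follow the glycine before the stop, and in the 3 Gabarap genes 1 codon follows it. No stretch of 50 bases was shared between the canonical transcripts of any pair of members. Of the 50-base windows of the canonical transcript of Map1lc3b, 32.3% also occur in annotated pseudogenes, and for Gabarapl2 the share was 16.9%. The counts of these genes may include or lack fragments that map to both. These transcripts have 889 and 1690 bases, against 2560 and 980 bases used for FPKM, so the shares are not those of the counted sequence.

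To ask whether R55 altered the machinery, R55-treated mice were compared with vehicle controls over both hemispheres. Fold changes are on the log2(FPKM + 1) scale, which understates the change of low genes. No member passed an adjusted p of 0.05 (limma, Benjamini-Hochberg over 12976 genes, smallest adjusted p = 0.552). Among all tested genes 0.00771% were called, which is 1 gene. Without R33-treated mouse AD limma called 50 genes for R55, and with the compared treatments alone 12, and no member was among them in either. An unadjusted p under 0.05 was found for 3 of 40 members, where 8.45% of all tested genes had one. Of these members 2 were higher, against 4.71% of all genes, and 1 was lower, against 3.74%. The R55-treated and vehicle mice did not overlap for 2 members, Map1lc3b and Epg5, and for 2.44% of all genes. The log2 fold changes of the 40 members ran from -0.18 to 0.16 with a median of 0.041, against 0.026 for all genes, and 29 were above 0, where 60.2% of all genes were. For all 40 members the 95% interval stayed within 0.5 on the log2 scale in either direction, and for 28 it stayed within 0.25. The hemispheres of a mouse enter this fit as separate samples, although they deviate together. When the mouse was a replicate block, Map1lc3b was the 1 member left at an unadjusted p under 0.05, where 4% of all genes reached it. The intervals were wider in that fit, with all 40 within 0.5 and 25 within 0.25. Without mouse AD the block left 2, Map1lc3b and Epg5, and 7.44% of all genes.

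**Figure D2:**
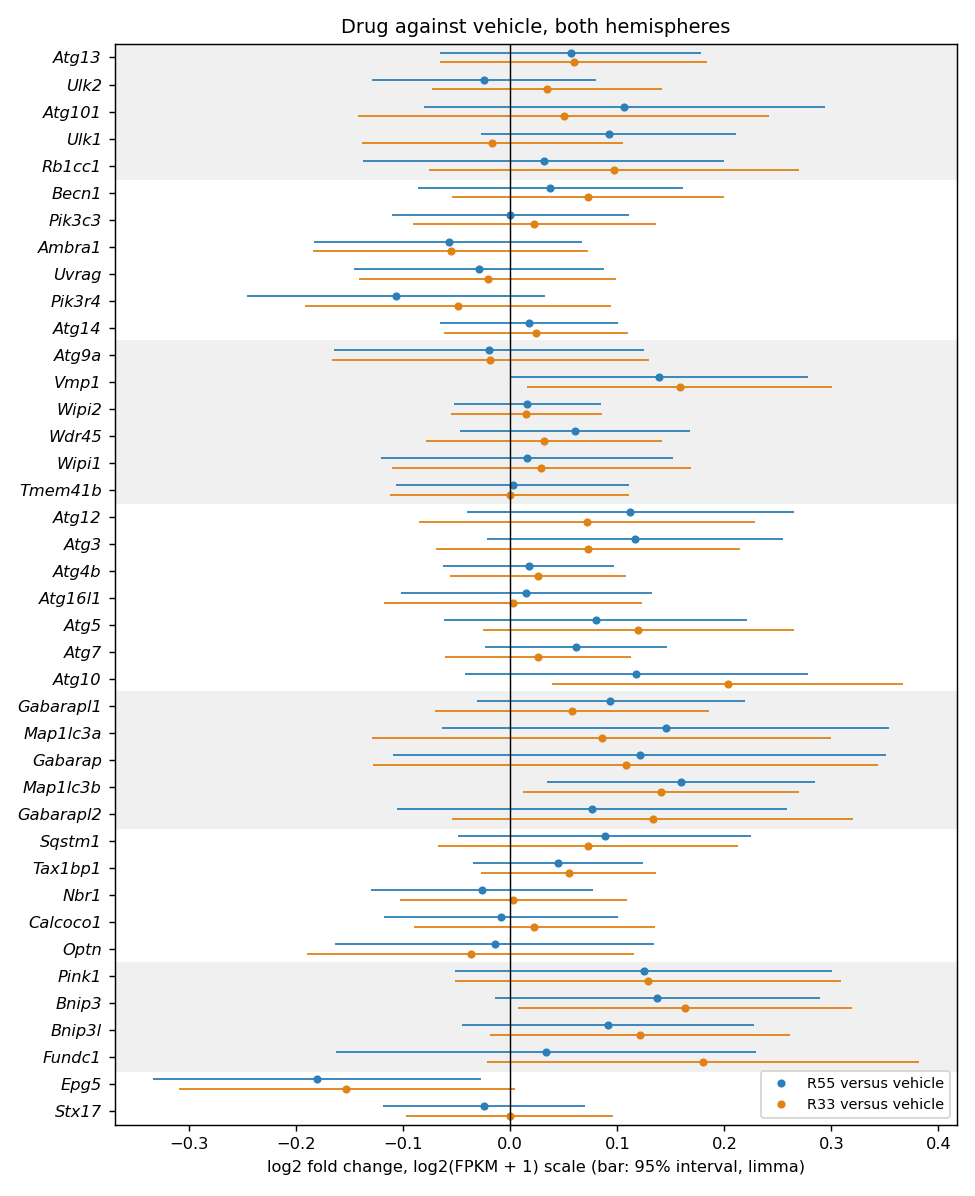
Log2 fold change of each member after R55 (blue) and R33 (orange) against vehicle over both hemispheres, with 95% intervals from limma, ordered as in the plot of levels. Map1lc3b and Vmp1 have intervals above 0 for both drugs, Atg10 and Bnip3 for R33, and Epg5 lies below 0 for R55. No member was called after adjustment. The fit shown takes both libraries from a mouse as independent, so its intervals do not measure the spread between mice alone. With the mouse as a replicate block, Map1lc3b alone stayed at an unadjusted p under 0.05 for R55 (limma), and no member did for R33. The drugs share the same vehicle controls.

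The smallest p-value among members belonged to Map1lc3b, which encodes LC3B, the Atg8 protein most used as a marker of autophagosomes, at chr8:122317100-122325499 (GRCm39). In vehicle controls it measured 78.8, 70.6, 83.2 and 80.2 FPKM in the injected hemispheres of mice J, M, L and AH, and 75.5, 69.4, 65.0 and 71.0 FPKM in their contralateral hemispheres. The R55-treated mice P, Q, R, AA and AB measured 75.3, 76.3, 84.1, 85.6 and 81.0 FPKM in the injected and 82.2, 86.7, 77.9, 87.0 and 93.2 FPKM in the contralateral hemisphere. In the contralateral hemisphere every R55 library was above every vehicle library, and in the injected hemisphere the groups overlapped. The share of all tested genes that separate the contralateral libraries was not counted. In limma 11.5% of all tested genes had an unadjusted p under 0.05 for R55 in that hemisphere. Averaged per mouse, vehicle controls had 74.2 ± 3.09 FPKM (SD, n = 4) and R55-treated mice 82.9 ± 3.61 FPKM (SD, n = 5), with all 5 above the highest vehicle control, and 1.02% of all tested genes separated the mice in that direction. The log2 fold change was 0.16 (SE 0.061, 95% interval 0.034 to 0.28, unadjusted p = 0.0146, adjusted p = 0.552), and with the mouse as a replicate block the unadjusted p was 0.0404. It was 0.13 among the mice with 1 letter in their label and 0.20 among those with 2 letters, a series that holds 1 vehicle control.

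Epg5 was the member with the lowest log2 fold change after R55. It measured 5.36, 4.86, 5.63 and 5.34 FPKM in the injected hemispheres of vehicle mice J, M, L and AH, and 4.26, 4.77, 6.32 and 5.68 FPKM in the contralateral ones. In R55-treated mice P, Q, R, AA and AB the values were 4.67, 5.55, 4.46, 4.45 and 4.67 FPKM in the injected and 4.88, 3.36, 4.51, 4.58 and 4.25 FPKM in the contralateral hemisphere. The libraries overlapped in both hemispheres, while the means per mouse did not, with averages of 5.28 ± 0.57 FPKM over 4 vehicle mice (SD) and 4.54 ± 0.14 FPKM over 5 mice given R55 (SD), where 1.43% of all tested genes separated the mice downwards. The log2 fold change was -0.18 (SE 0.075, unadjusted p = 0.0229, adjusted p = 0.557) and the unadjusted p was 0.0585 with the mouse as a block. Epg5 is the longest member, with 11967 bases used for its FPKM, and fold changes followed gene length over the whole table. The median log2 fold change after R55 was 0.10 in the tenth of tested genes with the shortest lengths and -0.10 in the tenth with the longest. With this trend removed from each library, the log2 fold change of Epg5 was 0.0044 and that of Map1lc3b 0.11 (unadjusted p = 0.0298, adjusted p = 0.734). Map1lc3b was then the 1 member left at an unadjusted p under 0.05, where 6.6% of all genes were.

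**Figure D3:**
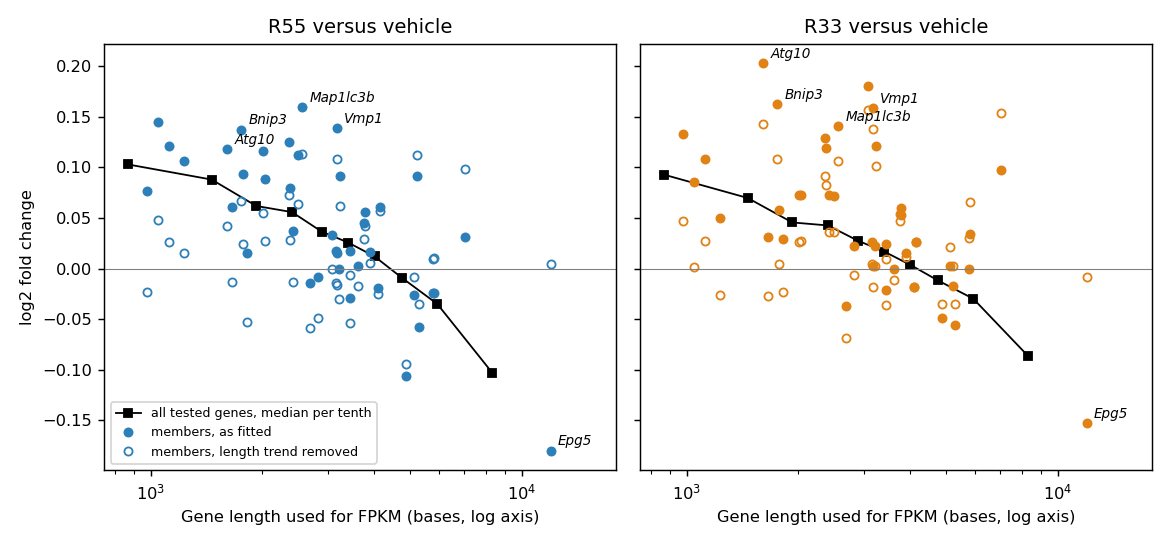
Log2 fold change after R55 (left) and R33 (right) against the gene length used for FPKM (bases, log axis). Black squares are medians of all tested genes in 10 bins of length, which go from 0.10 to -0.10 for R55 and from 0.093 to -0.087 for R33, filled circles are the members as fitted and open circles the members after removal of the length trend. Epg5, at the far right, moves to about 0 in both panels.

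Over the 40 members the Spearman correlation between length and log2 fold change was -0.67 for R55 and -0.60 for R33, against -0.49 and -0.46 over the 12976 tested genes. These correlations are across genes that share the same libraries and are not independent. The part of length in the drug comparisons was not tested beyond this removal.

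Vmp1, a lipid scramblase of the endoplasmic reticulum needed to form autophagosomes, came next. Its levels in vehicle mice J, M, L and AH were 38.7, 36.2, 41.7 and 34.5 FPKM in the injected and 31.5, 37.9, 33.3 and 34.3 FPKM in the contralateral hemisphere. In R55-treated mice P, Q, R, AA and AB they were 44.1, 39.7, 44.4, 34.3 and 34.2 FPKM in the injected and 45.3, 40.5, 37.4, 38.5 and 39.5 FPKM in the contralateral hemisphere. In the injected hemisphere R55 values lay both below and above the vehicle range, and in the contralateral one 4 of 5 lay above it. The log2 fold change was 0.14 (SE 0.068, unadjusted p = 0.05 after rounding and just under it before, adjusted p = 0.589), with an unadjusted p of 0.112 with the mouse as a block. It was 0.20 among mice with 1-letter labels and 0.083 among those with 2 letters.

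Bnip3 is a mitochondrial receptor that binds Atg8 proteins during mitophagy. It measured 50.1, 44.3, 52.2 and 46.96 FPKM in the injected hemispheres of vehicle mice J, M, L and AH and 46.6, 38.2, 47.9 and 43.5 FPKM in the contralateral ones. R55-treated mice P, Q, R, AA and AB had 57.1, 46.3, 58.8, 51.4 and 43.98 FPKM in the injected and 54.99, 53.4, 44.9, 47.4 and 51.8 FPKM in the contralateral hemisphere, and the groups overlapped on both sides. The log2 fold change was 0.14 (SE 0.074, limma, unadjusted p = 0.0743), and it was 0.17 and 0.10 within the 1-letter and 2-letter labels. With the length trend removed it was 0.067.

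**Figure D4:**
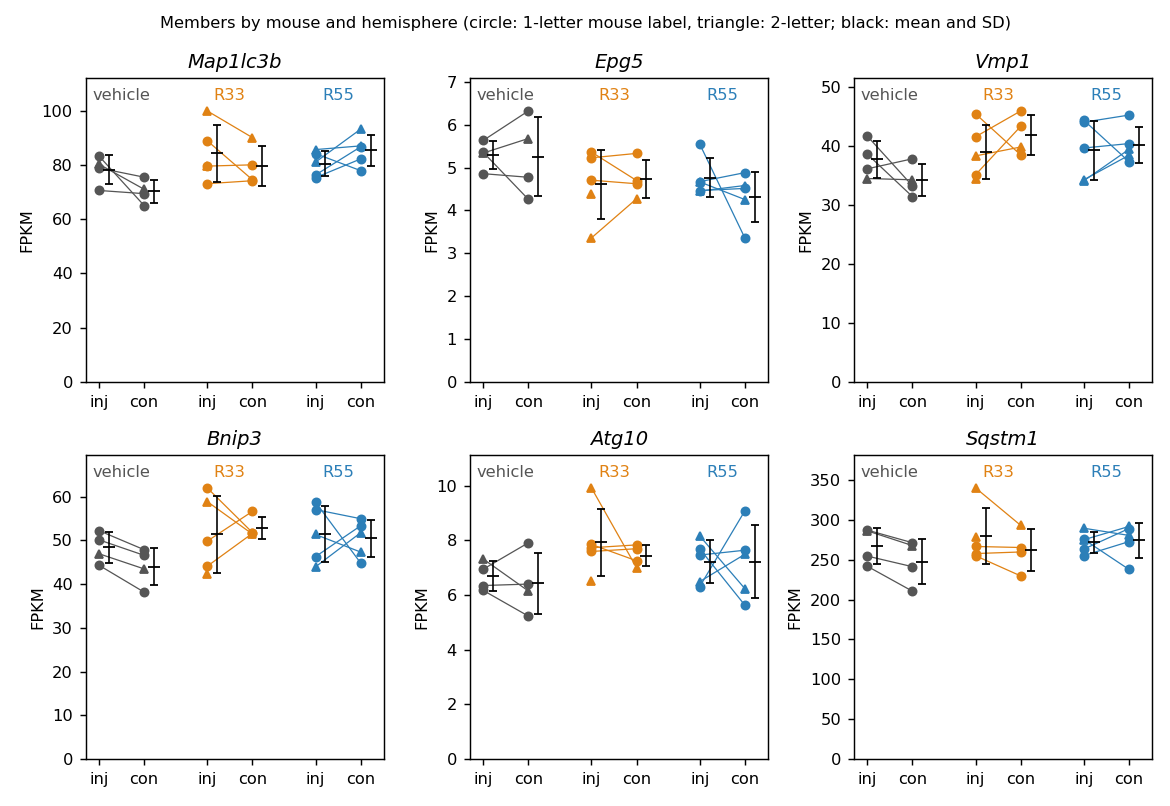
FPKM of 6 members by mouse, with lines that join the injected (inj) and contralateral (con) hemisphere of a mouse and black bars for the mean and SD of each group. In the contralateral hemisphere the R55 values of Map1lc3b, 77.9 to 93.2 FPKM, lie above the vehicle values, 65.0 to 75.5 FPKM, whereas the groups overlap in the injected hemisphere. The share of all tested genes that separate these contralateral libraries was not counted. In limma 11.5% of them had an unadjusted p under 0.05 for R55 in that hemisphere.

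By role, the 5 Atg8 genes had log2 fold changes above 0 after R55, from 0.077 for Gabarapl2 to 0.16 for Map1lc3b, with a median of 0.12. Their median length of 1122 bases is short against 3149 bases for all tested genes, and with the length trend removed their median was 0.026, with Gabarapl2 at -0.023. Means per mouse were 173.2 and 191.7 FPKM for Map1lc3a in vehicle and R55, 125.2 and 137.4 FPKM for Gabarap, 368.7 and 394.2 FPKM for Gabarapl1, and 41.2 and 43.5 FPKM for Gabarapl2, and the mice of both groups overlapped for each of these. The 4 mitophagy genes were above 0 too, with a median of 0.11, and so were the 7 conjugation enzymes, with a median of 0.080, where 60.2% of all genes were. With the length trend removed 3 of the 4 and 5 of the 7 were above 0, with medians of 0.065 and 0.042, where 51.2% of all genes were, and Fundc1 (-0.00011), Atg4b (-0.014) and Atg16l1 (-0.016) were not. The 6 genes of the PI3-kinase complex split into 2 above and 4 below 0, with Pik3r4, the scaffold subunit Vps15, the lowest at -0.11. With the length trend removed all 6 were below 0, and Pik3r4 was again the lowest at -0.094 (limma, unadjusted p = 0.127). Of the 5 cargo receptors 2 were above and 3 below 0.

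Members that the study names were looked at one by one. Ulk1, the kinase that starts autophagy, averaged 19.04 ± 1.98 FPKM over 4 vehicle mice (SD) and 20.3 ± 0.99 FPKM over 5 mice given R55 (SD), a log2 fold change of 0.092 with a 95% interval up to 0.21 (unadjusted p = 0.126). Its relative Ulk2 had a log2 fold change of -0.024 (unadjusted p = 0.636). Atg7, the activating enzyme of both conjugation reactions, had 0.061 (unadjusted p = 0.153). Values near 0 were measured for Atg14, the subunit that directs the PI3-kinase to autophagosomes, at 0.018, and for Wipi1, a PI3P-binding protein, at 0.015, and the sign of both turned with the scaling of libraries. For Sqstm1, whose protein is itself degraded by autophagy, the log2 fold change was 0.088 (unadjusted p = 0.197) and 0.027 with the length trend removed, with averages of 257.7 ± 25.4 FPKM over 4 vehicle mice (SD) and 273.3 ± 12.4 FPKM over 5 mice given R55 (SD).

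The R33 comparison asks the same of the other chaperone, against the same vehicle controls. No member was differentially expressed (limma, smallest adjusted p = 0.834), and none of the 12976 tested genes was called (0%). At an unadjusted p under 0.05 there were 4 members, all higher, where 5.87% of tested genes reached it, 3.19% with a higher and 2.68% with a lower level. In limma the first was Atg10 with a log2 fold change of 0.20 (SE 0.080, unadjusted p = 0.0173, adjusted p = 0.834). Vmp1 followed with 0.16 (SE 0.070), Map1lc3b with 0.14 (SE 0.063) and Bnip3 with 0.16 (SE 0.076), all at the same adjusted p = 0.834 in limma. None of the 4 stayed there when the mouse was a replicate block, where the count in limma was 0 and 2.25% of all genes reached it. Without mouse AD, which stood apart, 2 remained, Atg10 and Vmp1, and 3.78% of all genes. The median log2 fold change of the 40 members was 0.042, against 0.018 for all genes, and 31 were above 0, where 57.5% of all genes were. For no member did the R33-treated mice lie all above or all below the vehicle controls, which 0.709% of tested genes did.

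Atg10 encodes the E2-like enzyme that joins Atg12 to Atg5. It measured 6.94, 6.17, 6.35 and 7.32 FPKM in the injected hemispheres of vehicle mice J, M, L and AH, and 7.91, 5.23, 6.40 and 6.15 FPKM in the contralateral ones. The R33-treated mice K, N, O, AD and AE had 7.59, 7.85, 7.73, 9.92 and 6.53 FPKM in the injected hemisphere, and K, N, O and AD had 7.69, 7.25, 7.83 and 6.998 FPKM in the contralateral one. Averaged per mouse, 4 of 5 R33-treated mice exceeded the highest vehicle control, and mouse AE did not. The difference was 0.22 on the log2 scale within the series of 1-letter labels and 0.12 within the 2-letter labels.

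Vmp1 measured 41.6, 45.5, 35.2, 38.4 and 34.5 FPKM in the injected hemispheres of R33-treated mice K, N, O, AD and AE, and 46.0, 38.5, 43.4 and 39.9 FPKM in the contralateral hemispheres of K, N, O and AD. Bnip3 measured 49.9, 62.0, 44.1, 58.9 and 42.3 FPKM and, contralaterally, 56.7, 51.8, 51.6 and 51.5 FPKM in the same mice. Map1lc3b measured 79.6, 88.9, 73.1, 99.9 and 79.7 FPKM and, contralaterally, 80.0, 74.5, 74.2 and 90.1 FPKM. For Vmp1 and Bnip3 every contralateral R33 library was above every contralateral vehicle library, as the vehicle values above show. The share of all tested genes that separate these 4 and 4 libraries was not counted, so this separation cannot be set against it. For Map1lc3b, mouse AD had the highest value of all R33 libraries in either hemisphere.

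Whether the chaperones differ was tested directly, at the same concentration and time, over the 40 members. No member differed between R55-treated and R33-treated mice (limma, smallest adjusted p = 1), and none did at an unadjusted p under 0.05, where 1.15% of tested genes did and 0% were called. With the mouse as a block there was again none, and 0.424% of all genes. The smallest p-value was that of Ulk1, with 20.3 FPKM per mouse after R55 and 18.7 FPKM after R33, a log2 difference of 0.11 (95% interval -0.0066 to 0.22, unadjusted p = 0.0635). Next were Fundc1, a mitophagy receptor of the outer mitochondrial membrane, at -0.15 (95% interval -0.34 to 0.044), Ulk2 at -0.059 (-0.16 to 0.043) and Atg10 at -0.085 (-0.24 to 0.070). For 38 of 40 members the 95% interval of the difference stayed within 0.25 on the log2 scale, and for 33 with the mouse as a block. Map1lc3b differed by 0.019 (95% interval -0.10 to 0.14) and Epg5 by -0.027 (-0.18 to 0.12), which does not show that the drugs act alike. Without mouse AD there were 2 members at an unadjusted p under 0.05, Ulk1 and Map1lc3a, where 10.3% of all tested genes reached it. The count was 1 without mouse J or P (Fundc1, where 1.46% and 2.74% of all genes reached it) and without M or Q (Ulk1, 1.19% and 1.05%). With the mouse as a block and without AD it was 1, Map1lc3a, with 5.19% of all genes.

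The injected hemisphere was compared with the contralateral one over the mice of all treatments. In R33-treated and R55-treated mice the injected side also received the drug, so injection and local drug cannot be told apart here. Vehicle mice alone are described further below. No member was called (limma, smallest adjusted p = 1) and none had an unadjusted p under 0.05, where 3.47% of tested genes did and 0% were called. In the paired fit over the 13 mice with both hemispheres, in which the mouse is a replicate block, 1 member reached an unadjusted p under 0.05, with 6.13% of all genes. This was Tmem41b, the partner of Vmp1 in lipid scrambling, with a log2 difference of 0.068 (SE 0.031, unadjusted p = 0.0446, adjusted p = 0.802). Its injected and contralateral values were 8.16 and 7.58 FPKM in vehicle mouse J, 7.12 and 6.90 in M, 7.09 and 6.55 in L, and 7.42 and 7.30 in AH. In R33-treated mice they were 8.22 and 8.0 FPKM in K, 7.42 and 6.74 in N, 7.65 and 7.06 in O, and 6.16 and 6.91 in AD, and mouse AE had 7.499 FPKM in its injected hemisphere. In R55-treated mice they were 7.84 and 7.57 FPKM in P, 7.32 and 6.75 in Q, 7.06 and 5.89 in R, 8.39 and 7.65 in AA, and 7.30 and 7.16 in AB. The injected hemisphere was higher in 12 of 13 mice, mouse AD being the exception. Without R55-treated mouse R the fit without the block had 1 member at an unadjusted p under 0.05, Bnip3l, with 3.77% of all genes. Of the 50-base windows of the canonical transcript of Tmem41b, 12.6% also occur in an annotated pseudogene.

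Pik3c3, the catalytic PI3-kinase Vps34, followed with 0.058 (unadjusted p = 0.11) and was higher in the injected hemisphere in 10 of 13 mice. In vehicle mice J, M, L and AH Pik3c3 measured 16.3, 17.4, 17.7 and 16.4 FPKM in the injected and 14.3, 16.6, 17.5 and 15.9 FPKM in the contralateral hemisphere. In R33-treated mice K, N, O and AD the values were 17.5, 18.4, 16.3 and 15.7 FPKM and 18.9, 16.2, 17.4 and 15.2 FPKM. In R55-treated mice P, Q, R, AA and AB they were 17.6, 17.9, 16.1, 16.4 and 17.1 FPKM and 18.6, 16.8, 13.8, 15.5 and 15.2 FPKM. The difference was positive in each of the 4 vehicle mice. Bnip3l, a mitophagy receptor related to Bnip3, had -0.078 (unadjusted p = 0.138), lower on the injected side in 10 of 13 mice. In vehicle mice J, M, L and AH Bnip3l measured 35.7, 32.6, 31.2 and 30.5 FPKM in the injected and 40.9, 34.4, 29.1 and 31.4 FPKM in the contralateral hemisphere. In R33-treated mice K, N, O and AD the values were 35.5, 35.5, 35.4 and 40.4 FPKM and 37.5, 36.6, 36.6 and 35.8 FPKM. In R55-treated mice P, Q, R, AA and AB they were 37.2, 32.4, 34.97, 32.9 and 29.6 FPKM and 38.8, 42.9, 30.2, 37.1 and 38.9 FPKM. In 4 of the 5 R55-treated mice the injected side was the lower.

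Sqstm1 had a paired log2 difference of 0.058 (limma, unadjusted p = 0.171). In vehicle mice J, M, L and AH, Sqstm1 measured 241.9, 254.7, 287.3 and 286.4 FPKM in the injected and 210.6, 241.4, 271.5 and 267.9 FPKM in the contralateral hemisphere, so that the injected side was higher in each of the 4. R33-treated mice K, N, O and AD had 266.8, 255.1, 257.9 and 340.3 FPKM in the injected and 265.5, 229.8, 259.9 and 293.3 FPKM in the contralateral hemisphere, and R55-treated mice P, Q, R, AA and AB had 255.4, 263.5, 275.7, 275.3 and 289.7 FPKM and 272.9, 289.3, 238.0, 291.9 and 280.7 FPKM. The injected side was higher in 3 of 4 R33-treated and in 2 of 5 R55-treated mice.

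**Figure D5:**
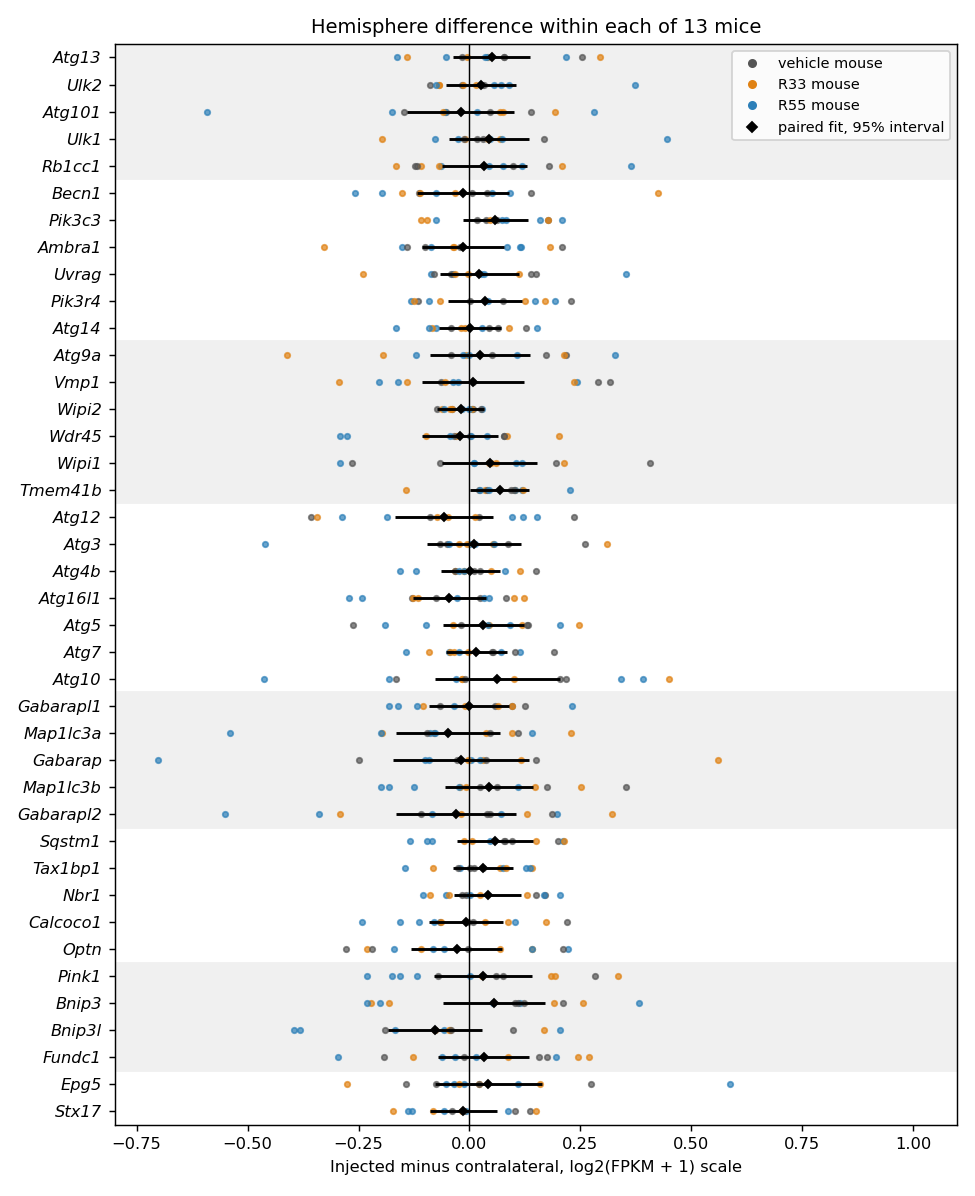
Injected minus contralateral difference of each member on the log2(FPKM + 1) scale. Points are the 13 mice with both hemispheres, coloured by treatment, and black diamonds with bars are the paired estimate and its 95% interval, which excludes 0 for Tmem41b only, before adjustment.

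In the vehicle mice alone, where no drug was given, the paired fit placed no member at an unadjusted p under 0.05 and 2.53% of all genes there, with 0% called. The largest value was that of Map1lc3b at 0.15 (SE 0.075, unadjusted p = 0.0602, adjusted p = 1), higher on the injected side in 4 of 4 mice. It was at an unadjusted p under 0.05 without mouse M or R, as were 4.04% and 2.65% of all genes. In R55-treated mice Map1lc3b was higher on the injected side in 1 of 5, by -0.083 on average.

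Pink1 had the smallest p-value between hemispheres in the mice given either drug. In R33-treated mice it measured 211.3, 255.7, 248.2 and 332.4 FPKM in the injected hemispheres of K, N, O and AD and 207.1, 223.7, 218.4 and 263.4 FPKM in the contralateral ones, higher on the injected side in 4 of 4. The paired log2 difference was 0.18 (SE 0.074, limma, unadjusted p = 0.0261, adjusted p = 0.777), the 1 member at an unadjusted p under 0.05 in these mice, where 6.29% of all genes were. Without mouse AD it was 0.14 (SE 0.082, limma, unadjusted p = 0.124, adjusted p = 1), and no member was at an unadjusted p under 0.05, with 4.45% of all genes. In R55-treated mice P, Q, R, AA and AB it measured 200.2, 226.1, 236.1, 226.1 and 257.5 FPKM in the injected and 223.4, 265.7, 256.5, 225.9 and 290.8 FPKM in the contralateral hemisphere, lower on the injected side in 4 of 5. There the log2 difference was -0.14 (limma, unadjusted p = 0.0594, adjusted p = 0.522), and no member had an unadjusted p under 0.05, where 9.53% of all genes had one. Without mouse AD in the fit there was 1, Tmem41b, with 11.4%.

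Since a drug may act differently on either side, each hemisphere was also fitted alone, with 1 library per mouse. In the injected hemisphere no member had an unadjusted p under 0.05 for R55 or R33 (limma, smallest adjusted p = 1 and 0.999), where 1.09% and 1.84% of all genes did. For R33, 1 member reached it without mouse J (Fundc1, where 2.46% of all genes did), O (Epg5, 2.67%), AE (Atg10, 2.37%) or AH (Atg10, 2.11%). The smallest p-values were those of Ulk1 for R55, at 0.11 on the log2 scale (unadjusted p = 0.111), ahead of Atg12 at 0.13, Epg5 at -0.13 and Calcoco1 at -0.078, and of Atg10 for R33, at 0.21 (unadjusted p = 0.064), ahead of Epg5 at -0.18, Atg5 at 0.15 and Fundc1 at 0.19. In the contralateral hemisphere R55 placed 3 members at an unadjusted p under 0.05, where 11.5% of all genes were, and none passed adjustment. They were Map1lc3b at 0.28 (SE 0.084, unadjusted p = 0.0052, adjusted p = 0.366), Vmp1 at 0.23 (SE 0.083, adjusted p = 0.382) and Bnip3 at 0.19 (SE 0.087, adjusted p = 0.422), and Epg5 came next at -0.23 (adjusted p = 0.44). For R33 there were Vmp1 at 0.29 (SE 0.088, adjusted p = 1) and Bnip3 at 0.26 (SE 0.091, adjusted p = 1), where 2.96% of all genes were, ahead of Map1lc3b at 0.18 and Atg7 at 0.11. Without vehicle mouse J, the contralateral counts were 10 for R55 and 7 for R33, with 19.4% and 7.71% of all genes, and without R55-treated mouse R the count for R55 was 7, with 15.2%.

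Oligodendrocyte markers also had fold changes above 0 in the contralateral hemisphere. Their summed level was 553 to 2290 FPKM in contralateral vehicle libraries with a median of 1260 FPKM, and 1210 to 2060 FPKM with a median of 1650 FPKM after R55, with 6 of 6 markers above 0, a median log2 fold change of 0.49 and none at an unadjusted p under 0.05. In the injected hemisphere 6 of 6 were below 0 after R55, with a median of -0.21. After R33 the contralateral sums were 1220 to 1730 FPKM, with 6 of 6 above 0 and a median of 0.24. Of the astrocyte markers 5 of 6 were above 0 contralaterally after R55, with a median of 0.18 and 1 at an unadjusted p under 0.05, and of the microglial markers 4 of 6, with a median of 0.10. The 3 endothelial markers were below 0, with a median of -0.20, neurons had 3 of 6 above 0, and the 1 tested red blood cell marker, Alas2, was at 0.67 with an unadjusted p under 0.05. The part of these markers in the values of members was not tested.

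The difference between hemispheres in the R55 effect was tested as an interaction. No member was called (limma, smallest adjusted p = 0.999) and none had an unadjusted p under 0.05, where 1.84% of all genes did and 0% were called. With the mouse as a replicate block there were 2 members and 5.93% of all genes, Map1lc3b at -0.24 (SE 0.10, unadjusted p = 0.0337, adjusted p = 0.806) and Pink1 at -0.22 (SE 0.099, unadjusted p = 0.0423, adjusted p = 0.806), both with a smaller R55 effect on the injected side. In the fit without the block Map1lc3b was the 1 member at an unadjusted p under 0.05 without mouse M, O, R or AD, where 2.75%, 1.82%, 3.16% and 3.71% of all genes were. For R33 no member had an unadjusted p under 0.05 with or without the block, where 0.956% and 0.378% of all genes did, and without mouse M or N there was 1, Vmp1, with 0.254% and 1.23% of all genes.

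The counts over both hemispheres depended on single vehicle controls. Without mouse J, 10 members had an unadjusted p under 0.05 for R55 and 10 for R33, where 12.9% and 12.8% of all genes did, and none was called. For R55 these were Ambra1, Atg10, Atg12, Atg3, Atg5, Bnip3l, Epg5, Fundc1, Map1lc3b and Pik3r4. Without mouse M the R55 count was 1, Epg5, with 4.69% of all genes, and the R33 count 2, Epg5 and Vmp1, with 4.44%. Without R33-treated mouse K the R33 count was 2, Atg10 and Map1lc3b, with 6.77%.

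Genes that act around the machinery were examined in the same fits. Of 25 other autophagy genes, all tested, 2 were higher and 2 lower after R55 at an unadjusted p under 0.05 and none was called, with a median of 0.025. Over all tested genes 4.71% were higher and 3.74% lower after R55, and 3.19% and 2.68% after R33, which are the shares to set beside the counts of these lists. The lowest was Wdfy3, which links aggregates to the autophagic membrane, at -0.36 (SE 0.12, unadjusted p = 0.0041, adjusted p = 0.515), the others being Atg2b at -0.13, Ykt6 at 0.15 and Atg4d at 0.19. With the length trend removed Wdfy3 was at -0.14 and Atg2b at 0.016, and with the mouse as a block the unadjusted p of Wdfy3 was 0.0138 (limma). Of 26 genes of mTORC1, AMPK and FoxO signalling, which control autophagy from above, 3 were higher and 3 lower, with Foxo1 at -0.30, Mtor at -0.18 and Tsc2 at -0.13, and Mlst8 at 0.099, Rragc at 0.14 and Prkag1 at 0.16. Of 24 lysosomal and TFEB-family genes 2 were higher, Tfeb at 0.22 (unadjusted p = 0.0462, adjusted p = 0.586) and Ctsf at 0.18. With the mouse as a block the counts after R55 were 2 higher and 1 lower among the other autophagy genes, 2 and 2 among the mTORC1, AMPK and FoxO genes, without Mlst8 and Mtor, and 1 among the lysosomal genes, Ctsf. With the length trend removed they were 1 and 1, 3 and 1, and 0, and Mtor was at -0.071 and Foxo1 at -0.27. After R33 the counts were 1 higher and 1 lower among the other autophagy genes, 1 and 2 among the mTORC1, AMPK and FoxO genes, and 0 among the lysosomal genes, and none was called.

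TFEB and its relatives bind the core TCACGTG in promoters of autophagy and lysosome genes. In the promoter windows of RefSeq (GRCm38.p6, 250 bases before and 50 after the start), which were matched for 32 members, this core occurred on either strand in 3 members, and in 4.29% of 27025 genes with a window. The FoxO core GTAAACA occurred in 0 of the 32 and in 4.05% of all. The 3 stretches that hold TCACGTG are shown 5′ to 3′ on the strand of the gene, with the matches in capitals. They are matches of sequence alone, and whether TFEB or a relative binds them was not tested. They lie at chr6:114670953-114670979 on the plus strand for Atg7, chr14:47568419-47568445 on the minus strand for Atg14 and chr16:45158724-45158774 on the plus strand for Atg3, an E2-like enzyme that hands Atg8 proteins to lipid.
Atg7: atattggtggTCACGTGtgcagtaagt
Atg14: aacaaaatccCACGTGActggccctga
Atg3: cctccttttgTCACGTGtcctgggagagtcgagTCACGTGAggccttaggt
The match of Atg7 starts 133 bases before the transcription start of its window and that of Atg14 1 base before its own, where the core is read on the other strand. The 32 members had 36 windows, so a window may belong to an alternative start of a gene. Atg3 holds 3 matches between 95 and 71 bases before the start, of which 2 overlap on opposite strands. The log2 fold changes after R55 were 0.061 for Atg7, 0.018 for Atg14 and 0.12 for Atg3, none at an unadjusted p under 0.05.

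The identity of some counts has limits. The shares given here are of canonical transcripts, whose lengths differ from those used for FPKM. Atg13 has 6177 bases against 3783 used, and Bnip3 3647 against 1756. The shares thus do not describe the counted sequence itself. More than 5% of the 50-base windows of 6 members also occur in annotated pseudogenes, among them Bnip3 with 10.5% and Bnip3l with 14%. More than 5% of exon bases overlap another coding gene for 5 members, namely Atg13 (55.2%), Becn1 (31.9%), Pink1 (40.4%), Atg9a (13.2%) and Wdr45 (41.5%), on the opposite strand except for Wdr45. The library kit keeps strand, and whether counting used it is not given in the sources used here.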

How the data were processed

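RNA-seq was performed by the authors on stranded mRNA libraries, with paired-end reads aligned to GRCm39 by HISAT2. The counting tool and annotation are not given in the sources used here. The deposited values are FPKM per gene symbol and library, scaled to the total of counted fragments. Whole fragments could be recovered for 100.0% of values (tolerance 0.0005), which gave the depth of each library. Of 32 libraries, 5 were not used.

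Genes that averaged 1 FPKM or more were tested with limma 3.58.1 (R 4.3.3) on log2(FPKM + 1), with treatment and hemisphere as terms, all two-sided and adjusted over 12976 genes by Benjamini-Hochberg. Limma voom on the recovered fragments called 1 gene for R55 and 0 for R33. The fit of R55 against vehicle was tested on simulated libraries drawn independently of each other. They held neither a correlation within a mouse nor a length trend, so the test does not cover these features of the data. Libraries with the same mouse label come from the same mouse. Their deviations correlated by 0.394 on average over 13 pairs (-0.0787 to 0.648), and the mouse was used as a replicate block in an alternative fit. In the fit without the block, p-values over both hemispheres count the 2 libraries of a mouse as separate samples. They thus do not measure the spread between mice alone. At an unadjusted p under 0.05 (limma) were 8.45% of all genes for R55 and 5.87% for R33 without the block. With the block the shares were 4% and 2.25%.

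The members, the gene lists and the genes named (the 4 smallest p-values per comparison, the study's own members and the Atg8 family) were chosen with earlier results of these data known. Other alternatives changed the pseudocount to 0.1, the filter, the scaling, the gene length trend, the mice and treatments in the fit and the series of mouse labels. Gene positions are from GENCODE on GRCm39.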

Additional observations from a re-analysis of the deposited data

Results flagged for a closer look

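For 22 named members, each group of 4 or 5 libraries was examined for a library far from the others by Dixon's criterion, which compares the gap to the nearest library with the range of the group. Of 132 groups, 12 held one, and chance gives about 1 in 20. Among the R33 libraries of mouse AD, Sqstm1 stood at 340.3 FPKM and Map1lc3a at 276.8 FPKM in the injected hemisphere, above 255.1 to 279.0 and 154.0 to 177.4 FPKM in the others, and Ulk1 at 20.87 FPKM in the contralateral hemisphere, above 18.27 to 18.67 FPKM. In the other R33 mice, Bnip3 stood at 56.66 FPKM in the contralateral hemisphere of K and Gabarapl2 at 57.52 FPKM in that of N, above 51.47 to 51.82 and 40.59 to 42.85 FPKM.

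Vehicle mouse J held Fundc1 at 21.43 FPKM and Ulk2 at 26.03 FPKM in the contralateral hemisphere, above 11.87 to 12.71 and 23.51 to 23.92 FPKM, and Gabarapl2 at 48.31 FPKM in the injected hemisphere, above 38.86 to 40.34 FPKM. Vehicle mouse AH held Gabarapl1 at 392.8 FPKM in the injected hemisphere, above 367.6 to 371.4 FPKM. In R55-treated mouse R the contralateral hemisphere held Atg14 at 5.176 FPKM, below 6.168 to 6.388 FPKM, and Wipi1 at 11.73 FPKM, above 9.127 to 9.793 FPKM. In R55-treated mouse Q the injected hemisphere held Epg5 at 5.549 FPKM, above 4.451 to 4.671 FPKM.

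The injected minus contralateral difference of Atg7 was above 0 in all 4 vehicle mice (mean 0.0989 on the log2 scale) and below 0 in all 4 R33-treated mice (mean -0.0434), 0.142 apart, and was singled out from 66 such pairs. The difference was not past the threshold when tested as an interaction with the mouse as a replicate block (limma, unadjusted p = 0.0911, adjusted p = 1).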

How the results depend on the processing

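No member was called in any of 206 counts at an adjusted p under 0.05 under the alternatives. Of the counts at an unadjusted p, 41 moved by over 1.5 times and 165 did not. With the mouse as a replicate block the count was 1 for R55 (3 as reported), 0 for R33 (4), 1 for the hemispheres (0) and 2 for the R55 interaction (0), and the block moved no other count. With the block and without mouse AD, an alternative chosen after seeing the data, these counts were 2, 0, 1 and 2, and R55 against R33 had 1. R55 had 1 with the length trend removed. R33 had 2 with median-of-ratios size factors, 1 with the means of each mouse and 2 with the compared treatments alone, where R55 against R33 had 1. The hemispheres had 1 with size factors. Leaving out each mouse gave counts of 1 to 10 for R55, 2 to 10 for R33, 0 to 2 for R55 against R33, 2 to 10 and 2 to 7 for R55 and R33 in the contralateral hemisphere, and 0 to 1 for the hemispheres, R33 in the injected hemisphere, both interactions and the vehicle mice. Log2 fold changes of named members kept their direction and stayed above an adjusted p of 0.05 in 864 cases and turned sign in 12. For R55 these were, with the length trend removed, Epg5 at 0.00441 (0.04466 contralaterally), Ulk2 at 0.01076, Atg14 at -0.006463, Wipi1 at -0.05273 and Gabarapl2 at -0.0231, and with size factors Atg14 at -0.001535 and Wipi1 at -0.004469. Without single mice Atg14 ran from -0.0001913 to 0.04128 and Wipi1 from -0.0329 to 0.07031. The cause was not tested. Few mice limit what can be seen: intervals for the single hemispheres and interactions are wider than those over both.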

Other observations

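Immediate early genes, which neurons switch on within minutes of activity, were measured in the same fits. All 6 had log2 fold changes above 0 after R55, with a median of 0.50, and 4 had an unadjusted p under 0.05 (Arc at 0.76, Fos at 0.65, Dusp1 at 0.56 and Ier2 at 0.44), where 8.45% of all tested genes had one, while none was called. With the length trend removed the median was 0.43 and 3 had an unadjusted p under 0.05. After R33 all 6 were below 0, with a median of -0.036. Between R55 and R33 the median difference was 0.56, and 5 of 6 had an unadjusted p under 0.05, against 1.15% of all tested genes, with none called.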
